A study of Homo sapiens with 14 samples.

Results

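Among the circRNAs that the deposited tables list for HepG2 cells, 447 were listed in the ribosome fraction and in none of the 5 other fractions with a table. They were chosen by joining the 6 tables on identical chromosome, start and end, and they make up 15.4% (95% Wilson interval 14.2 to 16.8) of the 2899 ribosomal circRNAs and stand among 11227 circRNAs in all. The values that chose them are their junction reads, present in the ribosome table and unlisted elsewhere. Their level in the ribosome fraction against other fractions is therefore given as a description, with no test.

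HepG2 is a human liver cancer cell line, and per the labels total RNA was taken from ribosome, cytosol, cytoplasm, nucleus, exosome and whole-cell preparations of it, untreated as far as the labels say. Each fraction has 2 libraries, so 12 libraries were used here, and the 2 mitochondrial samples were not analysed here. Ribosomal RNA was depleted in all of these fractions but the exosomes. The labels do not say whether the 2 libraries of a fraction came from separate cultures, so the spread between them may be technical.

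A circular RNA (circRNA) forms when the splicing machinery joins the end of an exon back to the start of the same or an earlier exon. The joined ends give a back-splice junction, and reads across that junction are what the tables count. A circle has neither a cap nor a poly(A) tail, and most circles are cytoplasmic. A fraction named for ribosomes can hold RNA bound by ribosomes and RNA in other particles that sediment with them, so presence there does not by itself mean translation. The tables hold circRNAs alone, with no ribosomal protein or RNA that could mark this fraction, and so its label could not be checked.

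The ribosomal libraries held 27239 and 19493.5 circRNA reads in replicates 1 and 2, where reads of a circRNA are the mean of the callers that list it. The deposited values imply library totals of 96.8 M and 70.8 M reads for these libraries and 65.6 M to 104 M for the others. Levels are in RPTM, reads per 10000000 library reads, given as mean ± SD of 2 libraries (n = 2). A caller's entry had at least 1 read in both libraries of a fraction, so a circRNA can be absent from a table and still have had a read in 1 library: unlisted is not a measured 0. HepG2 and hepatocyte marker genes were looked up as hosts. Of 11 such genes, 5 had a circRNA in any table, 2 (APOB and APOH) had one in the ribosome table, and none hosted a ribosome-only circRNA.

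No genome was used, so the junctions themselves are not printed. Of the 447 circRNAs, 2 have an end inside a RefSeq promoter window (250 bases before to 50 after a gene start, GRCh38.p14), against 40 of the 2452 other ribosomal circRNAs, or 0.447% and 1.63%. Those windows are shown because they are the ribosome-only ends for which sequence was at hand. The circRNA of PRPSAP2, which encodes a protein associated with phosphoribosyl pyrophosphate synthetase, starts at 18865469 on chromosome 17. The circRNA of SNX25, a sorting nexin gene, ends at 185342116 on chromosome 4. That end lies in the promoter window of another gene, LOC124900827, on the minus strand. PRPSAP2 and SNX25 lie on the plus strand, and the lines give the plus strand, with 30 bases on each side of the end. Capitals mark the 2 bases that flank the circRNA on the outside. They read AG before the PRPSAP2 start and GT after the SNX25 end, the letters usually found at the borders of introns.
PRPSAP2 start, chr17:18865439-18865499: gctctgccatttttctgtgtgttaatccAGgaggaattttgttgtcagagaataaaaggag
SNX25 end, chr4:185342086-185342146: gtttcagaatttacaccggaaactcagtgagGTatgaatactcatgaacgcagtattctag

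Some ribosome-only circRNAs enclose annotated miRNA hairpins, which here means that the hairpin lies between their ends on the genome. This held for 10 of 447 (2.24%), against 22 of the 2452 other ribosomal ones (0.897%). Members also had the higher median span, 8720 against 5483.5 bases, and the shares at like span were not analysed here. Identical hairpins recurred among the members. MIR6859-1 and MIR6859-2 on chromosome 1, MIR6511A2 and MIR6511A4, and MIR6770-2 and MIR6770-3 on chromosome 16, and MIR6862-2 inside EIF3C and MIR6862-1 inside EIF3CL each differed by 0 bases. The hairpins below are from RefSeq (GRCh38.p14), 5′ to 3′, with annotated mature arms in capitals. They are shown because the first 3 mark duplicated stretches of genome inside or beside members described below. MIR455, the last, is a single gene between the ends of the COL27A1 circRNA. Whether such hairpins remain in the spliced circles was not analysed here.
MIR6859-1, chr1:17369-17436: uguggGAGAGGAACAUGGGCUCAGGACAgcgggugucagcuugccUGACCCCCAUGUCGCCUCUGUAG
MIR6511A4, chr16:18344013-18344079: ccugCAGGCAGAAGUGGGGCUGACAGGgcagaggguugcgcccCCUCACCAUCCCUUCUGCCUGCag
MIR6770-3, chr16:18379351-18379410: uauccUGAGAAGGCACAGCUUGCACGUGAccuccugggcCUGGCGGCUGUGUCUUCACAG
MIR455, chr9:114209434-114209529: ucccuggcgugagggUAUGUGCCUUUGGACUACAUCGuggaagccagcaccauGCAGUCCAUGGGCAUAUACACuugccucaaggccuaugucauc

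Most of the 447 circRNAs rested on very few reads, and a handful held most of the reads. The median was 2 mean reads per library, against 3.75 for the 2452 ribosomal circRNAs that another table also lists. A single read in each library was all that 117 of them had (26.2%), against 146 of the others (5.95%). Sets listed in 1 other table were like the members in this: 1 read in each library was the count of 15.2% of cytosol-only, 21.2% of cytoplasm-only, 28.0% of cell-only, 29.1% of nucleus-only and 19.4% of exosome-only circRNAs. At least 5 mean reads were reached by 45, and at least 10 by 25. Together the 447 held 4067 and 3699.5 reads in replicates 1 and 2, or 14.9% and 19.0% of ribosomal circRNA reads. The first member by reads alone held 34.1% and 23.6% of the reads of the 447, and the first 4 held 57.3% and 57.4%. Without the 8 entries of 1 caller with most reads, the remaining members held 6.12% of ribosomal circRNA reads in place of 16.95 ± 2.86% (SD, n = 2).

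Read depth limits what being unlisted elsewhere means. A count of 3 reads corresponds to between 0.288 and 0.457 RPTM in the 10 other libraries, counting error only. In both ribosomal libraries, 57 members lay above that floor for cytosol, 54 above that for cytoplasm, and 39 (8.72%) above that for all 5 other fractions. The rest lay, in at least 1 ribosomal library, at or under the floor of at least 1 other fraction. Just outside the rule stood ribosomal circRNAs with an entry in exactly 1 other table: 140 in cytosol, 160 in cytoplasm, 95 in cell, 15 in nucleus and 2 in exosome. Of these, 4 in cytosol and 16 in cytoplasm had 1 read in each library there, the lowest count an entry can have.

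The first member by reads joined a pair of alpha-tubulin genes. It was an entry of the caller headed Ciri on chromosome 12 (49129500 to 49186458, hg38) that starts in TUBA1B and ends in TUBA1A, genes for building blocks of microtubules, 56959 bases apart. It had 1387 and 874 reads in ribosome replicates 1 and 2, or 133 ± 14.0 RPTM. It was the one entry that joins these genes in the 6 tables. A beta-tubulin entry from TUBB2A to TUBB2B (chromosome 6, 3155625 to 3225806) stood apart by its libraries, with 2 reads in replicate 1 and 100 in replicate 2.

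RNA-binding protein genes gave the next 2 circRNAs, both within 1 gene and both listed by Ciri alone. A 114-base circRNA of DDX5, a DEAD-box RNA helicase gene (chromosome 17, 64500215 to 64500328), had 330 and 540 reads, or 55.2 ± 29.8 RPTM. DDX5 had no other circRNA in any table. A 2335-base circRNA of HNRNPA2B1, which encodes an RNA-binding protein of nuclear RNA packaging and transport (chromosome 7, 26193575 to 26195909), had 285 and 483 reads, or 48.8 ± 27.4 RPTM. In both genes replicate 2 lay above replicate 1 by reads, although it is the shallower library. HNRNPA2B1 gave a second ribosome-only circRNA of 312 bases with 3 and 5 reads. Its remaining circRNA, of 123 bases, was listed in ribosome, cytosol and cell at 0.832 ± 0.577, 0.914 ± 0.206 and 0.366 ± 0.216 RPTM, values that overlap between ribosome and cytosol.

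A further short one came from ARGLU1, which encodes a cofactor of transcription and splicing. Its 84-base ribosome-only circRNA (chromosome 13, 106557048 to 106557131) had 27 and 35 reads. A 2610-base ARGLU1 circRNA with the same start was listed in ribosome, cytosol and cell, with 2 reads in each ribosomal library. The circRNA of COL27A1, a fibrillar collagen gene (chromosome 9, 114183022 to 114252932), had 22 and 35 reads and spans 69911 bases, MIR455 among them. The other COL27A1 circRNA, of 1251 bases, was listed in cytoplasm alone with 2 and 3 reads.

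**Figure D1:**
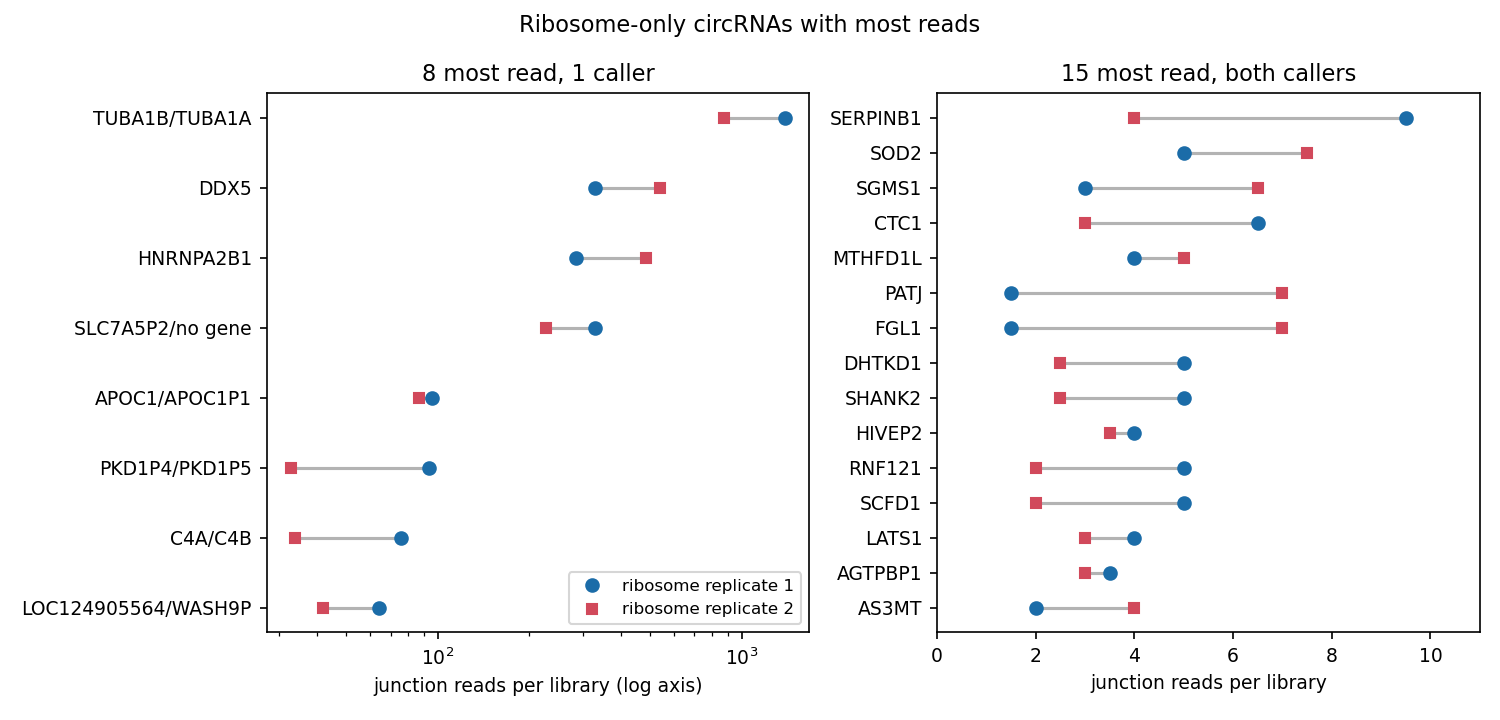
Junction reads of the 8 most-read ribosome-only circRNAs listed by 1 caller (left, log axis) and the 15 most-read listed by both callers (right, linear axis). Each row is 1 circRNA, the circle is ribosome replicate 1 and the square replicate 2. TUBA1B/TUBA1A reached 1387 and 874 reads, while no both-caller circRNA passed 9.5 in a library.

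Back-splices with ends outside a single gene took a larger share of members than of other ribosomal circRNAs. There were 42 of 447 (9.40%, 95% Wilson interval 7.03 to 12.5), against 45 of 2452 (1.84%, 1.37 to 2.45). All Wilson intervals here treat entries as independent, although entries can share a locus, and they do not measure spread between libraries. Ends outside a single gene were found for 2.81% of circRNAs listed only in cytosol, 1.42% of those only in cytoplasm, 2.51% of those only in cell, 9.18% of those only in nucleus and 32.3% of the 31 listed only in exosome. All 42 were listed by Ciri alone. They held 8.85% and 8.49% of ribosomal circRNA reads, and their median span was 81596 bases. Over all such entries, members or not, the share of circRNA reads was 15.2% and 13.6% in the ribosomal libraries and 14.1% and 13.2% in the nuclear ones. It was at most 2.34% in cytosol, 1.84% in cytoplasm, 3.45% in cell and 6.96% in exosome.

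Many of these entries linked genes with like symbols, as did those of the other sets listed in 1 table. In 31 of the 42 each end lay in a gene, and in 20 of those 31 the gene symbols began with the same 2 characters, a rule chosen after the pairs were seen. Besides the tubulins, such pairs were APOC1 and its pseudogene APOC1P1, complement genes C4A and C4B, glucose transporter genes SLC2A14 and SLC2A3, alpha-globin genes HBA2 and HBA1, and acute-phase glycoprotein genes ORM1 and ORM2. APOC1/APOC1P1 had 96 and 87 reads (11.1 ± 1.68 RPTM), whereas HBA2/HBA1 and ORM1/ORM2 had 4 and 2 reads each. Of entries not within 1 gene, pairs with the same 2 first characters were 20 of 42 members and 12 of 45 other ribosomal ones. They were 23 of 45 cytosol-only, 16 of 34 cytoplasm-only, 17 of 31 cell-only, 9 of 18 nucleus-only and 5 of 10 exosome-only entries. In 11 of the 31 members with each end in a gene the symbols began differently, as in IQGAP1/FURIN with 11 and 9 reads over 395252 bases. In the remaining 11 of the 42, at least 1 end lay outside every RefSeq gene. The tables give no strand, and whether such ends came from 1 transcript, from both copies of a duplicated sequence or from another source was not tested.

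The C4A and C4B genes, which encode complement component 4, a plasma protein made in the liver, had entries with different ends in different tables. The 6 tables held 16 entries from C4A to C4B, with spans from 31246 to 32655 bases, and 10 of the 16 were in 1 table alone. Both ribosome-only entries belong to these: one had 76 and 34 reads (6.33 ± 2.16 RPTM; chromosome 6, 32002399 to 32034992) and the other 55 and 44 (5.95 ± 0.377; 31983585 to 32016104). Summed over the entries of a table, the C4A/C4B level was 24.4 ± 3.76 RPTM in ribosome (4 entries), 25.7 ± 0.568 in cytosol (4), 20.7 ± 3.04 in cytoplasm (4), 31.2 ± 4.47 in cell (7) and 8.60 ± 2.56 in nucleus (3). Ribosome lay within the range of cytosol, cytoplasm and cell, although these tables listed mostly different entries. Whether those entries come from the same RNA was not tested. The smallest p that exact permutation of 2 and 2 libraries allows is 0.333 (two-sided), and no test was made.

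**Figure D2:**
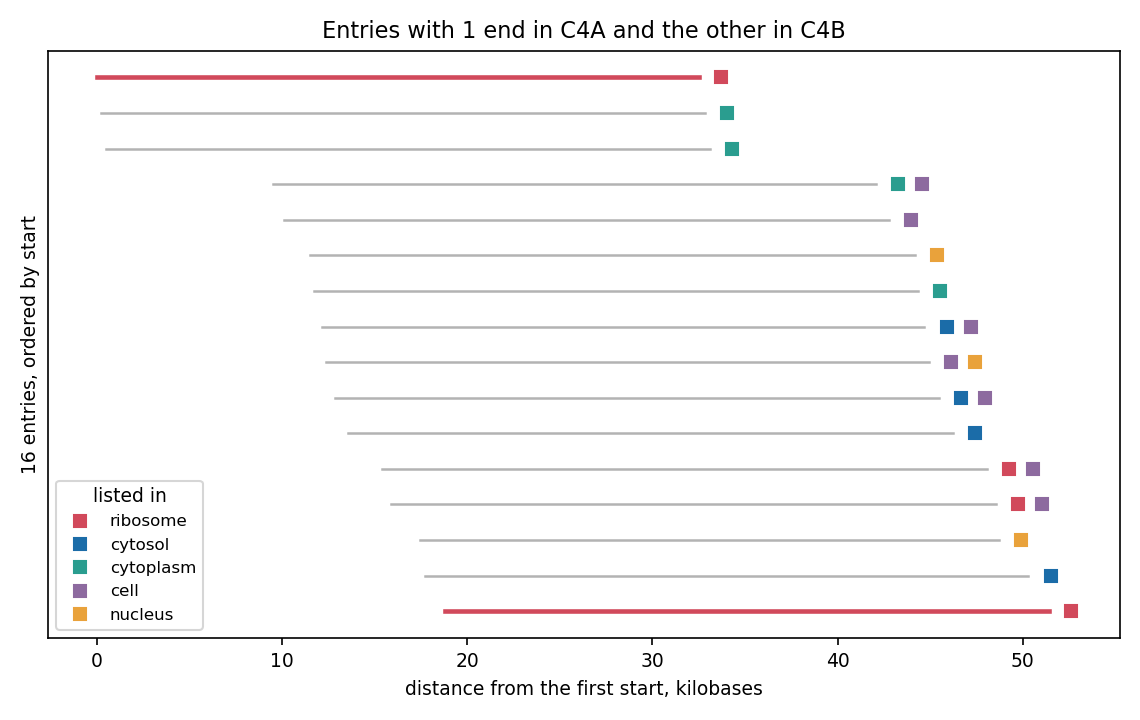
The 16 entries that start in C4A and end in C4B, drawn to scale as lines by distance from the first start in kilobases, with squares for the tables that list each. The 2 red lines are the ribosome-only entries, and 10 of the 16 lines carry a single square.

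At other duplicated loci, too, the tables listed entries with different ends. From a single start on chromosome 16 (21519828, in SLC7A5P2, a pseudogene of an amino acid transporter gene) the ribosome table listed an end at 21919103 with 329 and 228 reads, or 33.1 ± 1.26 RPTM. Cell, nucleus and cytosol listed an end at 21916024 from that start, with 30.1 ± 4.99 RPTM in nucleus, 9.33 ± 2.03 in cell and 2.26 ± 0.0567 in cytosol. Cytosol and cytoplasm listed an end at 21926921, at 2.30 ± 1.91 and 1.19 ± 0.310. The ribosome-only entry differs from the others of this start in its second end, and whether they come from the same RNA was not tested. By level, ribosome and nucleus overlapped at this start, and nucleus lay above cell, cytosol and cytoplasm. The ribosomal level is that of the member alone, which the rule chose, so it is a description with no test.

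Pseudogenes of PKD1, the polycystin gene of polycystic kidney disease, gave another case. The ribosome-only entry from PKD1P4 to PKD1P5 had 94 and 33 reads (7.19 ± 3.57 RPTM; chromosome 16, 18341622 to 18380979) and encloses MIR6511A4 and MIR6770-3, which lie 2391 bases from its start and 1569 from its end. Summed over its entries, the PKD1P4/PKD1P5 level was 20.05 ± 8.17 RPTM in ribosome (2 entries), against 3.25 ± 0.558 in cytosol (1) and 4.53 ± 0.535 in cell (2). The ribosomal sum includes the member, which the rule kept out of the other fractions, so these sums are a description with no test. PKD1P1/PKD1P2, with 64 and 34 reads (5.71 ± 1.28), encloses the copies MIR6511A2 and MIR6770-2.

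On chromosome 1, the member from LOC124905564 to WASH9P, a pseudogene of the WASH family, had 64 and 42 reads (6.27 ± 0.480 RPTM; 17233 to 187577). MIR6859-1 starts 136 bases inside its start and the identical MIR6859-2 starts 314 bases beyond its end. The hairpin copies are 170522 bases apart and the member spans 170345. The 3 entries that join these genes spanned 170285 to 170345 bases, and each was in a different table. LRRC37A2, in a duplicated stretch of chromosome 17, gave 2 members of 215296 and 215192 bases with 44 and 41 and with 28 and 28 reads. Summed over its entries the LRRC37A2 level was 8.59 ± 1.63 RPTM in ribosome, against 3.82 ± 0.343 in cytoplasm, 4.46 ± 1.03 in cell and 1.46 ± 0.272 in nucleus, with no entry in cytosol. The ribosomal sum is made of these 2 members alone, which the rule chose, so it is a description with no test.

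CircRNAs that both callers list are the firmer part, and they were few and low. There were 41 of 447 (9.17%, 95% Wilson interval 6.83 to 12.2), against 1106 of 2452 (45.1%, 43.1 to 47.1) of the other ribosomal circRNAs. Ciri alone listed 143 members (32.0%) and CIRC alone 263 (58.8%), and no CIRC-only member passed 4 mean reads. The share listed by both was 22.2% of the 1602 circRNAs only in cytosol, 20.5% of the 2397 only in cytoplasm, 14.7% of the 1234 only in cell and 7.14% of the 196 only in nucleus. The 117 members with 1 read in each library were all listed by CIRC alone, as were the 146 other ribosomal circRNAs and 243 of 244 cytosol-only ones. The share of both callers was 0% there in each set, and so it cannot tell the sets apart. At over 1 to 2 mean reads they listed 5.70% of 158 members, against 13.8% of 456 other ribosomal circRNAs and 5.73% of 436 cytosol-only ones. At over 2 to 5 mean reads both callers listed 22.7% of 132 members, against 46.6% of 966 other ribosomal circRNAs and 33.8% of 665 cytosol-only ones. At over 5 mean reads it was 2 of 40 members (5%), against 67.1% of 884 and 40.9% of 257.

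**Figure D3:**
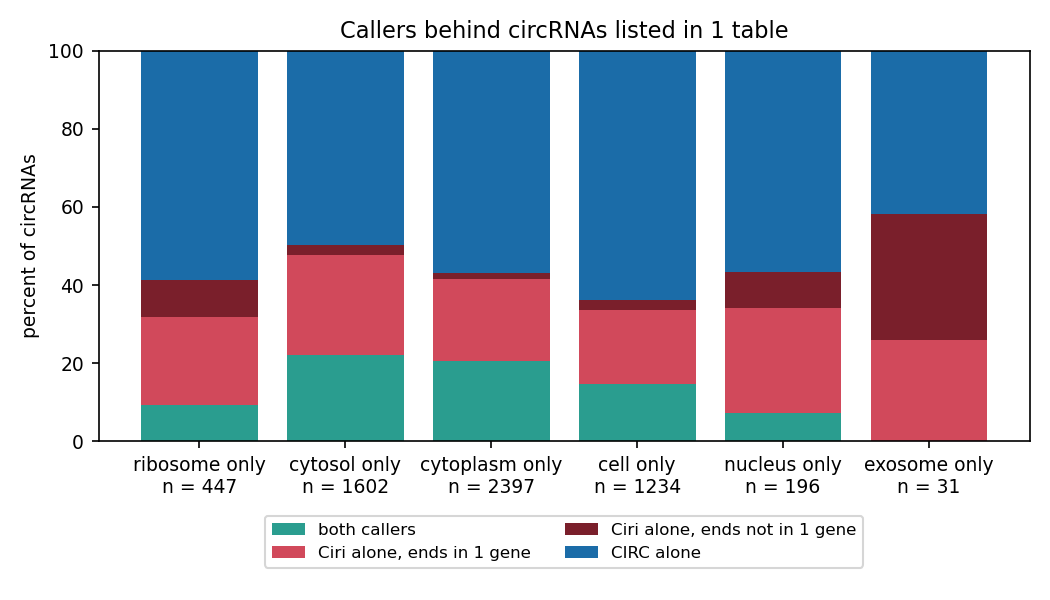
Percent of circRNAs listed in a single table by the callers that list them, 1 bar per table with its number of circRNAs. Both callers listed 9.17% of the ribosome-only circRNAs, against 22.2% of the cytosol-only ones, and Ciri entries not within 1 gene made up 9.40%.

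Of the 15 both-caller members with most reads, these came from genes of metabolic enzymes and a secreted liver protein. SOD2, the manganese superoxide dismutase of mitochondria, had 5 and 7.5 reads (0.788 ± 0.384 RPTM; chromosome 6, 159682474 to 159688242). MTHFD1L, a mitochondrial enzyme of folate metabolism, had 4 and 5 reads, and DHTKD1, a mitochondrial dehydrogenase of lysine breakdown, had 5 and 2.5. AS3MT, the arsenite methyltransferase, had 2 and 4. FGL1, a protein secreted by hepatocytes, had 1.5 and 7 reads, so its level lay mainly in replicate 2 (chromosome 8, 17868548 to 17885571).

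Other both-caller members came from genes of proteolysis, membranes and signalling. SERPINB1, an intracellular inhibitor of serine proteases, led by mean reads with 9.5 and 4 (0.773 ± 0.294 RPTM; chromosome 6, 2835856 to 2836250, 395 bases). Its callers differed: Ciri counted 16 and 6 reads, and CIRC 3 and 2. SGMS1, which makes sphingomyelin, had 3 and 6.5 reads (chromosome 10, 50519831 to 50590247), CTC1, of a complex that maintains telomeres, 6.5 and 3, and PATJ, a tight junction scaffold, 1.5 and 7. SCFD1, which acts in transport between endoplasmic reticulum and Golgi, had 5 and 2, and RNF121, a ubiquitin ligase of those membranes, 5 and 2.

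The others of the 15 were SHANK2, a scaffold protein gene best known from synapses, with 5 and 2.5 reads over 328296 bases, the zinc finger gene HIVEP2 with 4 and 3.5, the Hippo pathway kinase gene LATS1 with 4 and 3, and AGTPBP1, whose enzyme removes glutamates from tubulin, with 3.5 and 3. None of the 15 reached 10 mean reads. For 6 of them (SERPINB1, SOD2, CTC1, HIVEP2, RNF121 and AS3MT) the host gene had no other circRNA in any table.

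Ribosome-only circRNAs had a higher median span on the genome than other ribosomal ones, a description with no test. The median span was 8720 bases (quartiles 2472.5 and 26225; range 76 to 483451), against 5483.5. It was 7402.5 for circRNAs only in cytosol, 6705 for those only in cytoplasm, 8189.5 for those only in cell, 2031 for those only in nucleus and 973 for those only in exosome, so the cell-only median lay close to it. Within 1 gene the 405 members had a median of 7621. The both-caller members had 5769, against 5008.5 for the other ribosomal circRNAs of both callers, so the excess was smaller there. Spans over 50 kilobases made up 66 of 447 (14.8%), against 145 of 2452 (5.91%), and spans up to 300 bases 24 (5.37%) against 89 (3.63%). The span is the distance between the ends on the genome, and the spliced length was not analysed here.

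The extremes of span were Ciri entries. The 5 shortest came from FNDC3B (76 bases; 2 and 3 reads), HOOK1 (84; 15 and 5), ARGLU1 (84), the RNA-binding protein gene MSI2 (93; 3 and 2) and DDX5 (114). HOOK1 links cargo to microtubule motors and had no other circRNA. The 5 longest were entries not within 1 gene: one on chromosome 9 between ends outside genes (483451 bases; 4 and 6 reads), one that ends in the pseudogene DUXAP9 (448078; 2 and 4), SLC7A5P2 (399276), IQGAP1/FURIN (395252), and FAR2P1/CYP4F62P (389663; 4 and 3), a pair of pseudogenes.

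**Figure D4:**
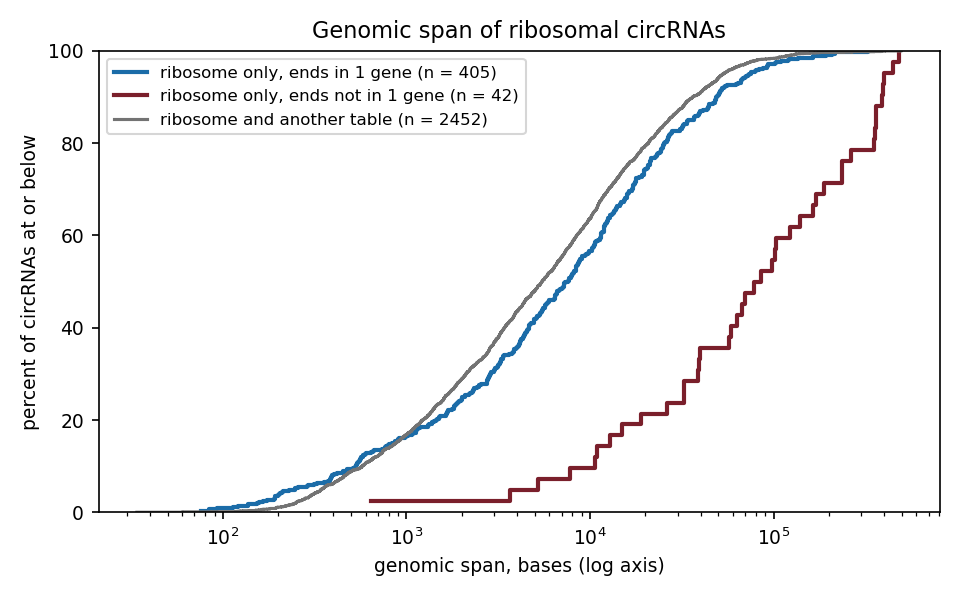
Cumulative percent of ribosomal circRNAs by genomic span in bases (log axis), for ribosome-only circRNAs within 1 gene, ribosome-only ones not within 1 gene, and those also in another table. Medians are 7621, 81596 and 5483.5 bases.

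The members within 1 gene came from 363 hosts, of which 328 gave a single one. By annotation 394 of the 447 lay in protein-coding genes, 9 in lncRNA genes and 2 in pseudogenes. UTRN, which encodes utrophin, a large protein that ties the cytoskeleton to the membrane, gave 5 members with 1 to 3 reads per library, beside 22 other circRNAs. CRIM1, SYN3, SETD2 and AFDN gave 3 each. Their members had 1 to 5 reads per library by either caller: CRIM1, a transmembrane protein gene, had 9 other circRNAs, SYN3, a synapsin gene, 1, SETD2, the histone H3 lysine methyltransferase gene, 8, and AFDN, the adherens junction protein gene, 14.

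Most hosts also gave circRNAs in other fractions. For 311 members (69.6%) the host had another circRNA in another table, and for 94 it had none. For 198 the member was the only ribosomal circRNA of its host. A start shared with a circRNA of another table was found for 120 members and a shared end for 123, and 204 (45.6%) shared at least 1. Neither end was shared by 243 (54.4%), against 32.0% of other ribosomal circRNAs and 51.6% of cytosol-only ones. Nearly identical ends were rare: 2 members had another entry with both ends within 5 bases, and 3 within 100.

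By function, hosts were spread thinly over 13 lists of gene symbols. The list of cytoskeleton, motor and centrosome genes held 25 members (5.59%), against 3.47% of other ribosomal and 3.68% of cytosol-only circRNAs. The tubulin pairs and UTRN are among them. ANKRD36 and ANKRD36C were taken by symbol alone, and IQGAP1/FURIN has its other end in FURIN, so not all 25 are cytoskeletal hosts. Chromatin regulators held 22 (4.92%, against 4.85% and 4.37%), of which SRGAP3/SETD5 had most reads, 6 and 4. Vesicle trafficking genes held 16 (3.58%, against 3.79% and 3.87%), led by TBC1D8, a GTPase regulator of the TBC family, with 10 and 4 reads.

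The lists of translation and RNA-binding genes, taken by symbol, held shares near those of the other ribosomal circRNAs. Ribosomal proteins and translation factors held 14 (3.13%, against 2.24% and 2.43%). The member of that list with most reads was RPS6KB1, with 4 and 9, which its symbol placed there although it encodes a kinase that phosphorylates a ribosomal protein, as does RPS6KA3. The others include the initiation factor genes EIF3C, EIF3CL and EIF4G3, the ribosomal protein gene RPL5 and the tRNA synthetase genes AARS1 and NARS1. The list of RNA-binding and splicing factors held 12 (2.68%, against 2.94% and 3.12%), led by DDX5. It does not hold MSI2 or ARGLU1, so its share is not that of all such hosts. Endoplasmic reticulum and secretory pathway genes held 6 (1.34%, against 2.24% and 2.12%), led by SSR1, a subunit of the translocon-associated complex, with 3 and 5 reads.

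Ubiquitin enzymes held 12 members (2.68%), against 5.79% of other ribosomal and 5.81% of cytosol-only circRNAs, led by TRIM74/TRIM50 with 33 and 16 reads. The protein kinase list held 10 (2.24%, against 4.36% and 3.68%), led by RPS6KB1. It went by symbol and does not hold LATS1, so its share is not that of all kinase hosts. Zinc finger genes taken by symbol, HIVEP2 not among them, held 11 (2.46%, against 2.94% and 2.18%), led by ZNF765/ZNF331 with 20 and 8. Solute carriers and transporters held 12 (2.68%, against 1.63% and 1.44%), but the SLC7A5P2 entry is a pseudogene and PDPK2P/KCTD5 and LOC652276/KCTD5 were taken by symbol alone.

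Secreted liver protein genes held 9 (2.01%, against 0.775% and 1.31%), led by APOC1/APOC1P1. SERPINB1, in that list by symbol, is not secreted by the classical route, and the rest include complement C5, the retinol carrier gene RBP4 and fibronectin gene FN1. Lipid and sterol genes held 8 (1.79%, against 1.18% and 1.06%), led by LRP6, a Wnt co-receptor of the LDL receptor family, with 11 and 8 reads. The adhesion list held 2 (0.447%, against 0.897% and 0.936%): ITGB1BP1, an integrin-binding adaptor gene, with 2 and 2 reads, and PLXND1. It does not hold AFDN, which gave 3 members. All lists went by symbol, so the shares describe the lists and not every gene of a function. The lists were chosen with earlier results of these data known, and no list was tested.

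Levels of members differed between the 2 ribosomal libraries, among the high ones too: DDX5 had 34.1 RPTM in replicate 1 and 76.3 in replicate 2, and PKD1P4/PKD1P5 had 9.71 and 4.66. Replicate 2 lay above replicate 1 in RPTM for 320 members and below for 127. Because replicate 2 is shallower, 1 read in each library already gives 0.141 RPTM in replicate 2 and 0.103 in replicate 1. A gap of over 4 times between the libraries was found for 23 members, of which TUBB2A/TUBB2B had the most reads.

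**Figure D5:**
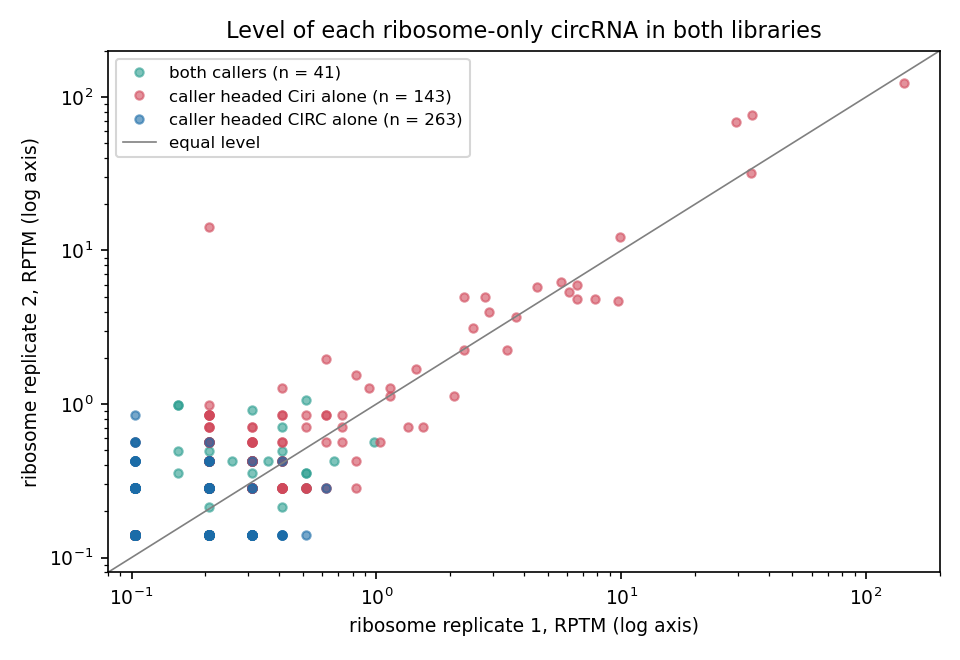
Level of each of the 447 ribosome-only circRNAs in ribosome replicate 1 and replicate 2, in RPTM on log axes, coloured by caller, with the line of equal levels. The lowest points sit on a grid set by 1 read, at 0.103 and 0.141 RPTM, and TUBB2A/TUBB2B lies far above the line.

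Because members were chosen by being ribosomal, tests were made on other circRNAs of their hosts. Those were 1390 circRNAs, of which 664 were listed by both callers in 1 same table, the first condition of the test. Of the 664, 161 from 96 hosts also passed the filter on low counts. Of the 447 members, 41 met the first condition and 0 of these passed the filter, while 25 members passed it when all listed circRNAs were admitted. In edgeR's quasi-likelihood test with Benjamini-Hochberg adjustment over 950 circRNAs, 72 of the 161 differed between ribosome and cytosol at adjusted p under 0.05, with 32 higher and 40 lower in ribosome. Over all 950 tested, 52.7% were called, 26.6% higher and 26.1% lower. Between ribosome and cytoplasm 59 differed, 33 higher and 26 lower, against 33.1% of the 950, 14.5% higher and 18.5% lower. Both comparisons share the ribosomal libraries. The hosts were chosen by ribosomal reads, so nothing is read from these counts against the whole. Median log2 differences of the 161 were -0.04 against cytosol and 0.20 against cytoplasm. Scaled by the implied library totals in place of TMM, the median of all 950 shifted to -0.71 and -1.20, and the splits became 11 higher with 70 lower and 6 higher with 67 lower.

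Among those other circRNAs, chosen after their values were seen, some shared an end with a ribosome-only member. A MIB1 circRNA, from a ubiquitin ligase gene of Notch signalling, runs from 21765772 to 21779685 on chromosome 18. It had 48.5 and 16 reads in ribosome, against 10 and 10 in cytosol. It was higher in ribosome by 2.76 ± 0.42 on the log2 scale (SE; edgeR adjusted p = 3.4e-06), and by 1.61 without ribosome replicate 1, which still passed. The MIB1 member has the same start, runs on to 21849388 and had 1 read in each ribosomal library. A UTRN circRNA (chromosome 6, 144487548 to 144493456) had 23 and 8 reads in ribosome, against 8 and 4 in cytosol, 2.45 ± 0.50 on the log2 scale (edgeR adjusted p = 0.00014). Without ribosome replicate 1 it was 1.34 and no longer passed. Of the UTRN members, 2 have this same start. Scaled by the implied library totals in place of TMM, the log2 difference was 1.88 for this MIB1 circRNA and 1.56 for this UTRN circRNA.

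Others of these hosts leaned to cytosol or had no end in common. An MTUS1 circRNA (chromosome 8, 17743604 to 17755961), from a gene for a microtubule-associated protein, had 62 and 30.5 reads in ribosome, against 15 and 5 in cytosol, 3.32 ± 0.39 higher on the log2 scale (edgeR adjusted p = 4.4e-08). A PHC3 circRNA (chromosome 3, 170136419 to 170149244), from a Polycomb gene, had 4 and 1 reads in ribosome, against 101.5 and 68.5 in cytosol, a log2 difference of -3.91 ± 0.58 (edgeR adjusted p = 1.7e-06). A UBAP2 circRNA (chromosome 9, 33948374 to 33956146) had 1 and 1 reads in ribosome, against 26 and 25 in cytosol, a log2 difference of -3.43 ± 0.73 (edgeR adjusted p = 0.00026). In each of these the ribosomal and cytosolic libraries did not overlap. Scaled by the implied library totals, the log2 differences were 2.41 for MTUS1, -4.81 for PHC3 and -4.27 for UBAP2. Leaving out a library gave 2.52 to 3.99 for MTUS1, -5.36 to -3.89 for PHC3 and -4.28 to -3.63 for UBAP2, which all passed. Members of the same hosts had 1 and 2 reads (MTUS1), 4 and 4 (PHC3) and 2 and 2 (UBAP2) in the ribosomal libraries.

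For the 15 both-caller hosts, the most abundant other circRNA passed the filter for 3. That of SGMS1 shares the member's end at 50590247 and spans 156772 bases. It had 9.5 and 7 reads in ribosome, against 13 and 9.5 in cytosol and 9 and 5 in cytoplasm. Its log2 difference was 0.69 ± 0.49 against cytosol (edgeR adjusted p = 0.236) and 1.54 ± 0.53 against cytoplasm (edgeR adjusted p = 0.0235), and the last did not pass in 7 of 12 alternatives. That of SHANK2, which shares the member's end at 71224796, had 18 and 10 reads in ribosome, against 32.5 and 23.5 in cytosol and 29 and 34 in cytoplasm. Its log2 differences of 0.10 ± 0.40 and 0.09 ± 0.39 (edgeR adjusted p = 0.872 and 0.884) changed sign in several alternatives. That of AGTPBP1 was unlisted in ribosome and had 36.5 and 31 reads in cytosol and 20 and 11.5 in cytoplasm, so no fold is given.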

How the data were processed

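Per the file headers, what was deposited for 6 fractions are counts of junction reads, whole numbers per library and caller (headed Ciri and CIRC). The authors also give a normalised signal, RPTM, which for Ciri was an exact linear function of the deposited counts and so implied each library's total. The genome build is hg38, per the submitters' processing notes. Aligner and caller versions are not given in the sources used here.

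Tables were joined on identical ends in Python 3.11.15. Ends were placed in RefSeq genes (GRCh38.p14, protein-coding first, strand not used), so 5 members lie in more than 1 equally ranked gene. Where both callers listed a circRNA their reads were averaged, and averages were rounded to whole numbers for the test. Counts of circRNAs that both callers list in 1 same table (4679, of which 950 passed filterByExpr with a minimum count of 10) were tested with edgeR 4.0.16 in R 4.3.3, TMM factors, 1 coefficient per fraction over 12 libraries, unlisted circRNAs at 0, threshold 0.05. The SE is the absolute fold change over the square root of F. DESeq2 1.42.0 was an alternative. The test was tried on simulated data first. Intervals and floors cover counting error only.

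Named members are the 15 with most reads of both callers (1 per host), the 8 with most reads of 1 caller, the 5 longest and shortest, those of the 5 hosts with most members, the first of each list, and for each of the 15 the most abundant other circRNA of its host. Further examples were chosen after their values were seen. The members, lists and tests were chosen with earlier results of these data known.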

Additional observations from a re-analysis of the deposited data

How the results depend on the processing

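The number of ribosome-only circRNAs, their median span, their share of ribosomal circRNA reads and the percent with a host listed elsewhere depended on which entries count. Restricted to entries of both callers they were 41, 5769 bases, 1.08% (of both-caller reads) and 75.6%, and with at least 5 reads in each ribosomal library 35, 39358 bases, 13.0% and 37.1%. Both restrictions leave fewer entries by construction. The share of reads was 6.12% without the 8 single-caller circRNAs with most reads, an alternative added after the data were seen, and 14.9% to 19.0% when a ribosomal library was left out. Calls among other circRNAs of the hosts, against cytosol and cytoplasm in that order, were 253 and 212 with no filter on low counts, 199 and 151 with at least 5 reads in 2 libraries (more circRNAs tested in both), and 40 and 21 with DESeq2. Against cytoplasm the split of 33 higher and 26 lower turned to 61 and 151 with no filter, 40 and 111 with at least 5 reads, 30 and 40 over all listed circRNAs, 15 and 28 without ribosome replicate 2 and 18 and 21 without cytoplasm replicate 2. Against cytosol the split of 32 and 40 became 73 and 180, 40 and 159, and 22 and 84 without ribosome replicate 2. Leaving out a library gave 63 to 106 and 33 to 48 calls, the lowest against cytoplasm without ribosome replicate 1 (33) and without cytoplasm replicate 2 (39). Same-numbered libraries did not deviate together (0 of 15 pairs of fractions above a correlation of 0.1), and with the replicate number as a block the calls were 73 and 59.

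The log2 difference of the SGMS1 circRNA against cytosol was -0.19 with implied library totals. That of the SHANK2 circRNA against cytosol was -0.17 with RLE factors, -0.80 with implied totals, -0.13 with no filter, -0.47 with at least 5 reads, -0.13 over all listed circRNAs, -0.17 with DESeq2, -0.0096 with unlisted circRNAs at 1 read, and from -0.56 to 0.060 when a library was left out. Against cytoplasm it was -1.08 with implied totals, -0.072 both with no filter and with at least 5 reads, -0.23 over all listed circRNAs, and from -0.28 to 0.29 when a library was left out. The cause of these changes was not tested. Of the other values, 106 single circRNA values kept their direction and side of the threshold, and 8 no longer passed. A further 24 counts or shares were graded as staying near the main value. For calls that grade used the total alone, so the split of higher and lower could still turn, as given above. Low reads limit all member values: 117 of the 447 had the lowest count an entry can have in both libraries.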

Other observations

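The ribosome table listed 1 circRNA of the mitochondrial chromosome, a 121-base entry in COX3, a subunit of cytochrome c oxidase, with 2 and 2 reads (0.245 ± 0.0537 RPTM). It is a ribosome-only member. The cytosol table listed 21 mitochondrial entries and exosomes had 2, while cell, nucleus and cytoplasm listed 0.

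Some members within 1 gene have a near-identical sister gene with an entry of like span. The member of WASHC2A, a gene of the endosomal WASH complex, had 4 and 3 reads and spans 11385 bases. An entry of its sister gene WASHC2C with the same span of 11385 was listed at 0.245 RPTM in cytosol, 0.225 in cytoplasm and 0.118 in cell and was unlisted in ribosome. The member of EIF3C, a subunit gene of initiation factor eIF3, had 3 and 3 reads and spans 12419 bases. An entry of its sister gene EIF3CL spans 12414 bases and was listed in cytoplasm at 0.225 RPTM. How the callers placed reads between such copies is not given in the sources used here, and levels of these genes are uncertain for that reason.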
